A study of Mus musculus with 6 samples.

Results

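The endolysosomal cathepsins and legumain are the proteases that cut proteins inside endosomes and lysosomes, and 10 of their genes were followed here: Ctsa, Ctsb, Ctsc, Ctsd, Ctse, Ctsh, Ctsl, Ctss, Ctsz and Lgmn. They were picked by gene symbol from the 54532 genes of the deposited count table, in which each symbol had 1 row. The libraries came from DC2.4, an immature mouse dendritic cell line. In 1 group of 3 libraries the cells carried the empty pTT5 vector, and in the other group of 3 they carried the same vector labelled as overexpressing Vdbp, the vitamin D-binding protein, whose mouse gene is Gc. All 6 cultures were transfected, passaged after 48 h and then placed under selection. The labels name no clone and leave unsaid if each library had its own transfection, and p-values here cover no more than the spread from library to library. They also describe the cells as derived from bone marrow.

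The libraries held 15563800 to 16710975 counts, and 12844 genes had enough counts to be tested. Gc had 0 counts in all 6 libraries, which allows up to 0.180 to 0.193 CPM (counts divided by the library's depth, the usual per-million scale) per library at 3 counts and covers counting error only. Groups are therefore called by their labels, and a direction is that of the libraries labelled Vdbp. Of 11 dendritic cell markers only Itgax, Irf8 and Zbtb46 were tested, and 5 had at most 10 counts over all 6 libraries together, the class II chain genes H2-Aa and H2-Ab1 among them. Of 7 macrophage markers 6 were tested, all but Mertk, and their summed level was 2782 to 3080.2 CPM in empty-vector libraries and 2642 to 3104 CPM with the Vdbp label. All 5 leukocyte markers were tested, but only 1 of 6 T cell, 1 of 5 B cell, 1 of 5 neutrophil, 1 of 5 fibroblast, 0 of 4 epithelial and 0 of 4 hepatocyte markers.

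Cathepsins are made as inactive proenzymes in the endoplasmic reticulum, tagged with mannose 6-phosphate in the Golgi, and carried to endosomes, where falling pH and other proteases remove the propeptide. Cathepsins B, C, H, L, S and Z use a cysteine in the active site, cathepsins D and E a pair of aspartates, and cathepsin A a serine, while legumain is a cysteine protease of another fold that cuts after asparagine. In antigen-presenting cells they degrade endocytosed protein to peptides, trim the invariant chain from class II molecules and cleave the nucleic acid sensing Toll-like receptors, and cystatins hold the cysteine enzymes in check.

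DC2.4 cells held RNA of 8 of the 10 genes, and 7 of these were among the more abundant transcripts of the cell. Levels per length are given as FPKM, the count divided by gene length and by a constant per library that differs from that of the CPM. In order of FPKM averaged over the 6 libraries, Ctsz came first with 1128 FPKM (range 971 to 1366). Ctsd followed with 739 FPKM (range 672 to 871), Ctsb with 723 FPKM (range 668 to 780.4) and Ctsa with 603 FPKM (range 564 to 694). The next were Ctss with 402 FPKM (range 332 to 465), Lgmn with 333 FPKM (range 306 to 353) and Ctsl with 225 FPKM (range 201 to 239.9). Ctsc was far below them with 10.6 FPKM (range 9.26 to 11.4). Neighbours in this order whose 6 libraries overlapped were Ctsd and Ctsb, Ctsb and Ctsa, and Ctss and Lgmn, while the other neighbours down to Ctsc lay apart. By FPKM, Ctsz ranked 18 among the 12844 tested genes and Ctsl 207, whereas Ctsc ranked 4809. The gene length in the table is the union of all annotated exons, which for Ctsc is 2.33 times the length of the principal transcript (5808 against 2493 bases). With principal transcript lengths, an alternative chosen after seeing the data, Ctsb (922 FPKM) passed Ctsd (817 FPKM), and the order of the other 6 expressed genes stayed as given. Where transcripts shared the best principal tag the longest was taken, and that used for Ctsl has 6168 bases. The order with shorter transcripts was not examined.

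**Figure D1:**
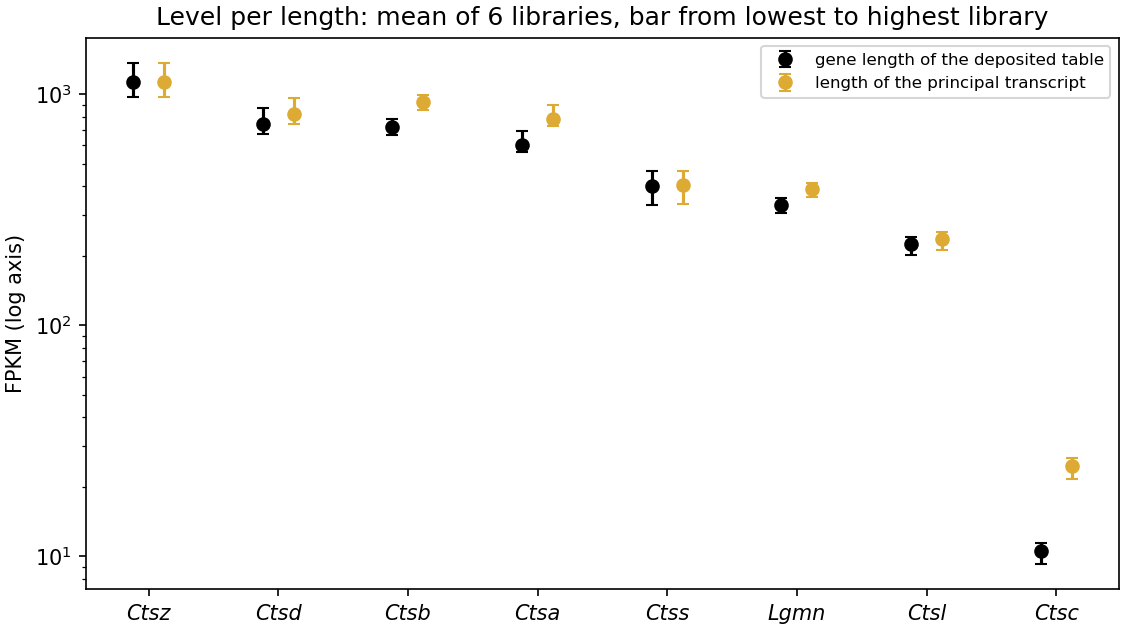
Level per length of the 8 expressed genes on a log axis of FPKM, as the mean of the 6 libraries with bars from the lowest to the highest library, for the gene length of the deposited table and for the length of the principal transcript. Ctsz to Ctsl lie within 1 band, and Ctsc lies far below them with either length.

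The aminopeptidase gene Ctsh and the aspartic protease gene Ctse were at the limit of detection. Ctsh (ENSMUSG00000032359, chromosome 9, 90054152 to 90076089, plus strand) had 2, 0 and 0 counts in the empty-vector libraries and 0, 3 and 0 in those labelled Vdbp. Ctse (ENSMUSG00000004552, chromosome 1, 131638306 to 131675505, plus strand), known from gastric and immune cells, had 0, 0 and 1 counts and 1, 2 and 0 counts. Both groups were thus at or under 3 counts for each gene, a level of at most 0.062 CPM over a group, and no fold change was formed.

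The promoters are shown because TFEB and TFE3, factors that switch on lysosomal genes, bind an element built around CACGTG. RefSeq promoter windows (GRCm38.p6, 250 bases before to 50 bases after a start) existed for 7 of the 10 genes, as 9 windows. CACGTG, which reads the same on both strands, was found in windows of 4 of these 7 genes, against 8.09% of all 27025 genes with a window, and in 4 of their 9 windows, against 7.15% of all 32851 windows. For Ctsa and Lgmn it lay only in the window of a start further inside the gene. Their windows at the 5′ end of the gene (chr2:164832622-164832921 and chr12:102439679-102439978) had 0 matches. The extended form TCACGTGA was found in 2 of the 9 windows, of Ctsa and Ctsd, and in 0.97% of all windows, and the full CLEAR element of lysosomal genes, that form with 1 more base on each side, in none of the 9 and in 0.33% of all. These were 3 of 13 motifs searched, and the extended forms contain the shorter one. In the GENCODE M21 annotation, the Ctsa stretch and the Ctsd stretch nearer the start overlap the 5′ untranslated region of a longer transcript, the Ctsl stretch does so in part, the Lgmn stretch lies in an intron, and the other Ctsd stretch lies before the gene. Each stretch runs 5′ to 3′ on the strand of the gene, with CACGTG in capitals.
Ctsa, 12 bases before and 5 bases after the start, chr2:164833758-164833786, plus strand: tgtCACGTGatgcagatgctCACGTGacc
Ctsd, 98 bases before the start, chr7:142387908-142387937, minus strand: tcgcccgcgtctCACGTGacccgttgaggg
Ctsd, 245 bases before the start, chr7:142388055-142388077, minus strand: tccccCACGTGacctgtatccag
Ctsl, 236 bases before the start, chr13:64370739-64370768, minus strand: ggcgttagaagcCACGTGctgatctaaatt
Lgmn, 49 bases before the start, chr12:102439124-102439153, minus strand: tggaatgtctgtCACGTGgtccattttata

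Ctss encodes cathepsin S, the endopeptidase that makes the last cuts in the invariant chain (ENSMUSG00000038642, chromosome 3, 95526786 to 95556403, plus strand). It had 584, 639 and 564 CPM in empty-vector replicates 1, 2 and 3 and 455, 533 and 517 CPM in Vdbp replicates 1, 2 and 3. All 3 Vdbp libraries were under the lowest of the empty-vector libraries, with Vdbp replicate 1 the lowest and empty-vector replicate 2 the highest of the 6. The means were 596 ± 39.0 and 501 ± 41.2 CPM (SD, n = 3 each), and the log2 fold change was -0.25 (SE 0.10, 95% interval -0.46 to -0.033). Fewer cells of a kind and less RNA per cell cannot be told apart in such bulk libraries.

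Ctsl encodes cathepsin L, a broad endopeptidase that activates other lysosomal enzymes (ENSMUSG00000021477, chromosome 13, 64359337 to 64370890, minus strand). It had 1552, 1575 and 1517 CPM in empty-vector replicates 1, 2 and 3 and 1315, 1483 and 1352 CPM in Vdbp replicates 1, 2 and 3. The groups did not overlap here either, and the empty-vector libraries lay closer together than those labelled Vdbp. The log2 fold change was -0.16 (SE 0.093, 95% interval -0.36 to 0.040). Ctsb encodes cathepsin B, which is both an endopeptidase and a dipeptidyl carboxypeptidase (ENSMUSG00000021939, chromosome 14, 63122462 to 63145923, plus strand). Its libraries held 4722, 4669.9 and 4244 CPM in the empty-vector libraries against 4513, 4046 and 4153 CPM under the Vdbp label. Vdbp replicate 1 lay within the range of the empty-vector libraries and the other Vdbp libraries lay below all of them, with a log2 fold change of -0.10 (SE 0.10, 95% interval -0.32 to 0.11). By CPM, which is not scaled by length, Ctsb ranked 8 of all tested genes.

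Ctsz encodes cathepsin Z, also called cathepsin X, a carboxypeptidase of myeloid cells (ENSMUSG00000016256, chromosome 2, 174427493 to 174439039, minus strand). It had 1508, 1416 and 1753 CPM in empty-vector replicates 1, 2 and 3 and 1982, 1686 and 1447 CPM in Vdbp replicates 1, 2 and 3. The groups overlapped, and the highest library (Vdbp replicate 1) was 1.40 times the lowest (empty-vector replicate 2). The log2 fold change was 0.13 (SE 0.13, 95% interval -0.15 to 0.41), the widest interval of the 8 genes. Ctsc encodes cathepsin C, the dipeptidyl peptidase that activates granule serine proteases (ENSMUSG00000030560, chromosome 7, 88278085 to 88310888, plus strand). It had 62.2, 67.0 and 64.3 CPM in the empty-vector libraries against 54.1, 64.5 and 57.7 CPM under the Vdbp label, with Vdbp replicate 1 the lowest library and Vdbp replicate 2 inside the empty-vector range. Its log2 fold change was -0.13 (SE 0.10, 95% interval -0.36 to 0.091).

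Ctsd encodes cathepsin D, the main aspartic protease of lysosomes (ENSMUSG00000007891, chromosome 7, 142375911 to 142388038, minus strand). It had 1739, 1599 and 1721 CPM in empty-vector replicates 1, 2 and 3 and 2062, 1629.6 and 1715 CPM in Vdbp replicates 1, 2 and 3. Vdbp replicate 1 stood above the other 5 libraries, which lay within 1599 to 1739 CPM, and the log2 fold change was 0.10 (SE 0.11, 95% interval -0.14 to 0.33). Ctsa encodes cathepsin A, a serine carboxypeptidase that also protects β-galactosidase and neuraminidase 1 from degradation (ENSMUSG00000017760, chromosome 2, 164832873 to 164841032, plus strand). Its libraries held 2892, 2698 and 2834 CPM in the empty-vector libraries against 3297, 2659.6 and 2741 CPM under the Vdbp label. Here too Vdbp replicate 1 alone was high, and the groups overlapped, with a log2 fold change of 0.046 (SE 0.11, 95% interval -0.19 to 0.28).

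Lgmn encodes legumain, which cleaves after asparagine and converts single-chain cathepsins to their mature forms (ENSMUSG00000021190, chromosome 12, 102394084 to 102439813, minus strand). It had 821, 821 and 783 CPM in empty-vector replicates 1, 2 and 3 and 787, 733 and 713 CPM in Vdbp replicates 1, 2 and 3. Vdbp replicate 1 lay just above empty-vector replicate 3, and the other Vdbp libraries lay below all empty-vector libraries. Lgmn had the smallest ratio of highest to lowest library of the 8 genes (1.15), and its log2 fold change was -0.12 (SE 0.090, 95% interval -0.32 to 0.077).

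**Figure D2:**
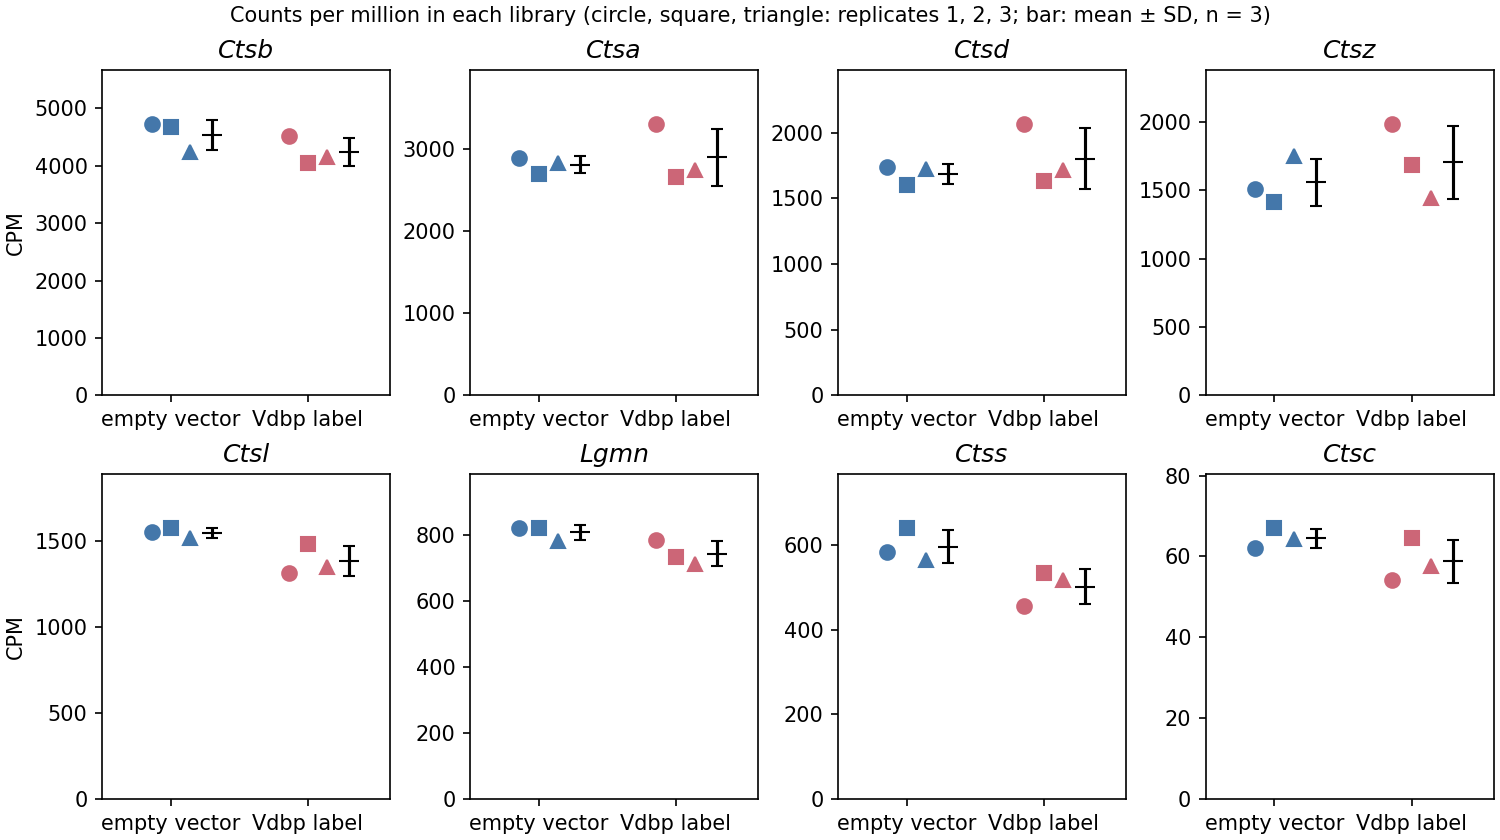
CPM (linear axes from 0) of the 8 tested genes in each library, with replicates 1, 2 and 3 as circles, squares and triangles and the mean ± SD (n = 3) beside each group. The groups part only for Ctss and Ctsl, and Vdbp replicate 1 (circle) is the highest library for Ctsa, Ctsd and Ctsz.

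None of the 8 tested genes passed the comparison. edgeR's quasi-likelihood test called 0 of 8 at a Benjamini-Hochberg adjusted p under 0.05, and 0 of 12844 genes over the whole table (0.0%). The adjusted p was 0.781 for Ctss, Ctsl, Lgmn and Ctsc, 0.797 for Ctsb and Ctsz, 0.811 for Ctsd and 0.899 for Ctsa. At an unadjusted p under 0.05 there was 1 of 8, Ctss (unadjusted p = 0.0274 in edgeR), where 5.35% of all tested genes met that level in either direction and 2.54% with lower values under the Vdbp label. DESeq2 and limma-voom also called 0 of 8, with Ctss as 1 of 8 at an unadjusted p under 0.05 in each. That level was met by 613 of 12844 tested genes in DESeq2 and by 701 of 12844 in limma-voom. The groups did not overlap with the Vdbp label lower for 2 of 8 genes, against 5.61% of all tested genes, and with that label higher for 0 of 8, against 5.26%. Fold values lay below 0 on the log2 scale for 5 of the 8 and for 51.3% of all tested genes, with medians of -0.11 and -0.0070.

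Each interval covers the spread from library to library in this edgeR fit, for 1 gene at a time, and not the choice of processing. For all 8 genes the 95% interval stayed inside 1.5-fold in either direction, as it did for 70.7% of tested genes. For Ctss the interval ran from 0.725 to 0.977 times the empty-vector level, for Ctsz from 0.902 to 1.33 times, and for Lgmn from 0.804 to 1.05 times.

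**Figure D3:**
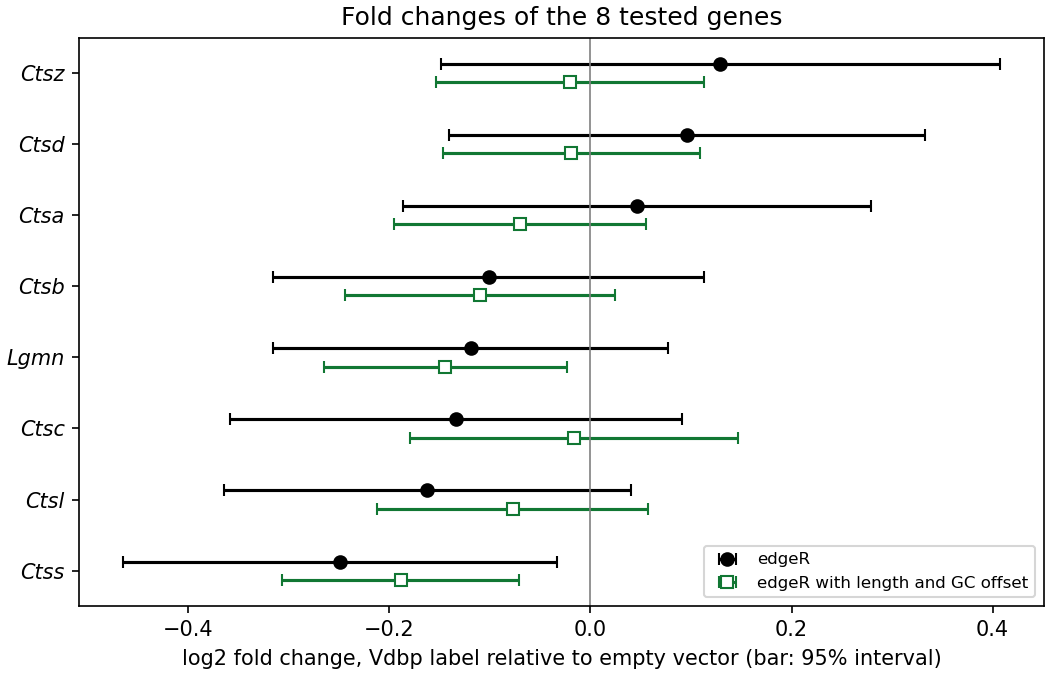
Log2 fold change of each tested gene, Vdbp label relative to empty vector, with its 95% interval, from edgeR (filled circles) and from edgeR with an offset for gene length and GC content (open squares). Ctsa, Ctsd and Ctsz lie above 0 without the offset and below 0 with it, and every interval spans 0 except those of Ctss in both fits and of Lgmn with the offset.

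Of the 8 genes, 3 had GC-rich transcripts and 3 had transcripts below the median GC content. These sets deviated in opposite directions in Vdbp replicate 1 and in empty-vector replicate 2, but not in every library. Across all tested genes the libraries differed in a trend with GC content, which was strongest in Vdbp replicate 1 (Spearman's rho across genes 0.75) and empty-vector replicate 2 (-0.64). Ctsz, Ctsa and Ctsd have transcripts of 57.3%, 56.1% and 55.1% GC, above the upper quartile of tested genes (54.5%). In Vdbp replicate 1 they stood 0.29, 0.21 and 0.25 log2 units above their mean over the 6 libraries. Ctsl, Ctss and Ctsc have 46.3%, 45.9% and 43.4% GC, below the median of 49.9%, though only Ctsc is below the lower quartile (45.5%). In the same library their deviations were -0.15, -0.26 and -0.18. Ctsb and Lgmn, at 51.1% and 50.7% GC, deviated there by 0.042 and 0.022. In empty-vector replicate 2 those 6 genes had the opposite signs, among them Ctsz (-0.19), Ctsd (-0.12) and Ctss (0.23). Ctsb (0.091) and Lgmn (0.083) were above their means in both libraries. In Vdbp replicate 3 (rho -0.41) all 6 genes lay below their means, from -0.019 for Ctsd to -0.16 for Ctsz.

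Once each library's dependence on gene length and GC content was removed, the SD over the 6 libraries was 0.062 log2 units for Ctsz (before, 0.19), 0.051 for Ctsd (before, 0.13) and 0.057 for Ctsa (before, 0.11). It was 0.11 for Ctss (before, 0.17), 0.077 for Ctsl (before, 0.11), 0.094 for Ctsc (before, 0.12) and 0.083 for Ctsb (before, 0.093). For Lgmn it was 0.084 before and 0.088 after. In edgeR with that offset the log2 fold changes of Ctsz, Ctsa and Ctsd were -0.021, -0.070 and -0.019, and those of Ctsl and Ctsc were -0.077 and -0.016. Ctss had -0.19 (SE 0.054, adjusted p = 0.41), Lgmn -0.14 (SE 0.056, adjusted p = 0.486) and Ctsb -0.11 (SE 0.062, adjusted p = 0.616). None passed, while 2 of all tested genes did (Cd274 and Arg1, named after their values were seen, 0.0156%). Ctss and Lgmn, 2 of the 8, were at an unadjusted p under 0.05 in that fit, against 9.27% of all tested genes. The same 2 genes had groups without overlap after the trend was removed, against 7.33% of tested genes in that direction. Without Vdbp replicate 1 and with no offset, the log2 fold change was -0.053 for Ctsa, -0.0093 for Ctsd, 0.0098 for Ctsz and -0.18 for Ctss.

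**Figure D4:**
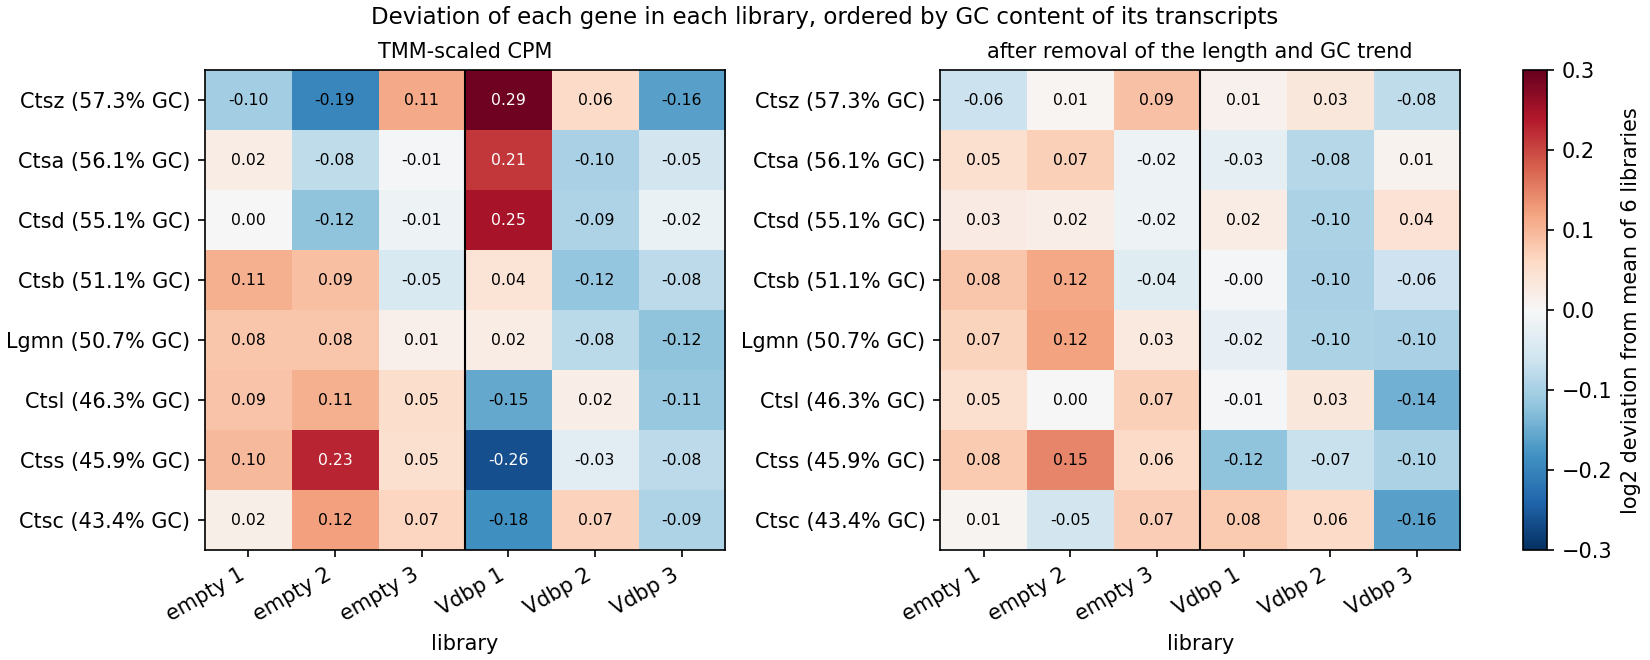
Deviation of each tested gene from its mean over the 6 libraries (log2 units, colour and printed value), with genes in rows from highest to lowest transcript GC content, as TMM-scaled CPM on the left and after removal of the length and GC trend on the right. On the left, Vdbp replicate 1 runs from 0.29 for Ctsz to -0.26 for Ctss; on the right, the same library runs from 0.079 for Ctsc to -0.12 for Ctss.

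Summed over the 10 genes, the level was 13879.9, 13485 and 13479 CPM in the empty-vector libraries and 14465, 12834 and 12695 CPM in those labelled Vdbp. The Vdbp libraries thus spanned both ends of the range, with replicate 1 the highest and replicate 3 the lowest of the 6. The genes took 1.28% to 1.41% of all counts of a library. Within the summed FPKM, Ctsz held 25.8% ± 2.45 in empty-vector libraries and 28.2% ± 2.25 under the Vdbp label (SD, n = 3 per group). Ctss held 10.5% ± 0.91 and 8.91% ± 1.40. The summed FPKM was 4162 ± 108 and 4162 ± 345. Ratios of counts within a library do not depend on scaling, but they still hold the library's trend with GC content. Transcripts of Ctsz and Ctss have 57.3% and 45.9% GC, and those of Lgmn and Ctsb 50.7% and 51.1%. The ratio of Ctsz to Ctss counts was 2.58, 2.21 and 3.11 in the empty-vector libraries, against 4.36, 3.17 and 2.80 under the Vdbp label, so the groups overlapped. The ratio of Lgmn to Ctsb counts was nearly constant, 0.172 to 0.184 over the 6 libraries.

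Genes that make, sort, inhibit or use these proteases were read from 8 further lists. No gene of the 8 lists passed edgeR's test: 0 of 64 tested genes were called, with Mitf and Cd74, 2 of 64, at an unadjusted p under 0.05 against 5.35% of all tested genes. DESeq2 and limma-voom called 0 as well, with 5 (Cd74, Cst3, Ctsk, Mitf and Nagpa) and 3 (Cd74, Ctsk and Mitf) at an unadjusted p under 0.05. Over all 12844 tested genes, 613 met that level in DESeq2 and 701 in limma-voom. Of the other lysosomal cathepsins and bleomycin hydrolase, 3 of 6 genes were tested (Ctsk, Ctso and Blmh), with a median log2 fold change of -0.11 (-0.0030 with the offset). Medians of each list are given without and with the length and GC offset, which turned the sign for the serpins and for the TFEB family. The osteoclast collagenase Ctsk, whose gene starts 5′ of Ctss on chromosome 3 with 17424 bases between them, exceeded all 10 genes in level per length (2886 FPKM). Its libraries averaged 4669.8 ± 29.1 and 4093 ± 225 CPM, without overlap between the groups, and the log2 fold change was -0.19 (edgeR, adjusted p = 0.781). Blmh, the cytosolic bleomycin hydrolase, averaged 149 ± 4.04 and 144 ± 1.81 CPM. Other lysosomal peptidases had 8 of 8 tested and a median of -0.088 (-0.044 with the offset), with the lysosomal thiol reductase Ifi30 at 433 ± 18.5 and 503 ± 78.0 CPM and Scpep1, a serine carboxypeptidase, at 239 ± 9.01 and 236 ± 4.91 CPM.

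Among the inhibitors, cystatins and stefins had 4 of 12 tested and a median of 0.039 (0.019 with the offset). Cst3, the secreted cystatin C, averaged 872 ± 86.0 and 1031 ± 136 CPM, and Cstb, the cytosolic stefin B, 195 ± 2.29 and 185 ± 22.4 CPM. Their log2 fold changes were 0.24 and -0.072, and the groups overlapped for both. With the offset they were 0.12 and -0.082. Clade B serpins and related inhibitors had 5 of 8 tested and a median of -0.091 (0.014 with the offset), with Serpinb6a at 177 ± 10.5 and 151 ± 18.7 CPM and Serpinb9, an inhibitor of granzyme B, at 14.0 ± 0.509 and 13.2 ± 2.89 CPM. The sorting list had 13 of 13 tested and a median of -0.037 (-0.0080 with the offset). The cation-dependent mannose 6-phosphate receptor M6pr averaged 521 ± 15.7 and 508 ± 13.2 CPM, and Nagpa, which uncovers the mannose 6-phosphate tag, 90.6 ± 13.2 and 112 ± 23.3 CPM.

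Partners in the lysosome had 9 of 9 tested and a median of -0.044 (-0.090 with the offset). Psap, the precursor of the saposins and a ligand of procathepsin D, averaged 1515 ± 44.5 and 1502 ± 220.3 CPM, and the membrane protein Lamp1 1322 ± 81.5 and 1248 ± 30.5 CPM. The transcription factors of the TFEB family and their nutrient control had 13 of 14 tested and a median of 0.017 (-0.079 with the offset). Rraga, a GTPase that recruits mTORC1 to lysosomes, averaged 73.7 ± 2.98 and 66.3 ± 3.90 CPM, and Lamtor2, a subunit of its anchor, 87.2 ± 14.6 and 88.2 ± 22.0 CPM. The factor genes themselves had log2 fold changes of 0.080 for Tfeb, 0.12 for Tfe3, -0.28 for Mitf and -0.11 for Tfec. Their adjusted p in edgeR was 0.873, 0.785, 0.781 and 0.845, and they were named after their values were seen. With the offset the values were -0.079, 0.042, -0.23 and 0.018, so those of Tfeb and Tfec turned in sign. The list of substrates and users in antigen handling had 9 of 12 tested and a median of 0.12 (0.028 with the offset). The invariant chain Cd74, the substrate of cathepsin S, averaged 168 ± 4.72 and 202 ± 20.2 CPM, and Unc93b1, the chaperone of endosomal Toll-like receptors, 269 ± 6.50 and 302 ± 38.2 CPM. Their log2 fold changes were 0.27 and 0.17, and 0.13 and 0.028 with the offset. The class II chain genes H2-Aa and H2-Ab1 had 1 and 4 counts over all 6 libraries. Over all tested genes the median was -0.0070.

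**Figure D5:**
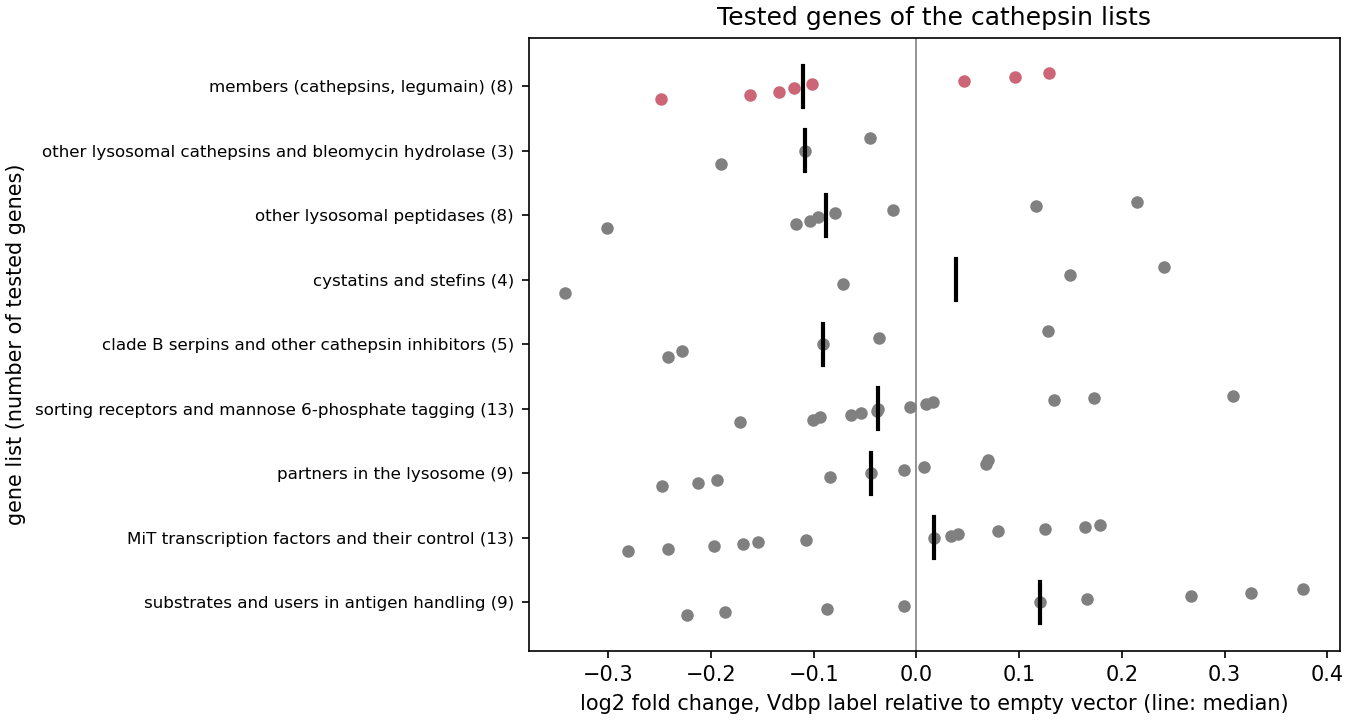
Log2 fold changes, Vdbp label relative to empty vector, of the tested genes of each list (points) with the list's median (line), the number of tested genes in brackets, and the 8 tested cathepsin and legumain genes in the top row. Every list has points on both sides of 0 except that of Ctsk, Ctso and Blmh, which all lie below 0 in this fit, though Blmh is at 0.043 with the length and GC offset.

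Genes with the most similar pattern over the 6 libraries were sought for Ctsz, the member with the highest level per length, and for Lgmn, as the smallest root mean square difference of centred log2 CPM among the 8932 tested genes of at least 10 CPM. For Ctsz these were Thra, Adssl1 and Fhl3, at 0.024, 0.024 and 0.025 log2 units, with transcripts of 57.9%, 56.2% and 59.6% GC. For Lgmn they were Srgap3, Abr and Myo1e, at 0.019, 0.020 and 0.020 log2 units. With the length and GC trend removed, none of the 6 genes was among the nearest again, and the nearest were Vezt, Spag9 and Atg3 for Ctsz and Nckap1l, Ndst1 and Ago2 for Lgmn.

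Counted reads of some of these genes share bases with neighbours, and no source used here says whether counting used strand. In the GENCODE M21 exons, Ctsb shares 774 bases with Fdft1 on the other strand (1136 to 1292 counts per library), and Ctsa shares 495 bases with Pltp (10 to 23 counts) and 324 with Neurl2 (235 to 377 counts), both on the other strand. Ctsz shares 10 bases with Nelfcd. Ctsl shares 1742 bases with the antisense gene Gm47123 and 395 with the processed pseudogene Gm49230 on its own strand. Ctsd shares 808 bases with Gm49369 on its own strand. Gm47123, Gm49230 and Gm49369 were at 0 counts in all 6 libraries. Reads of the shared bases cannot be told apart, so levels of Ctsa, Ctsb, Ctsd and Ctsl are uncertain to that extent.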

How the data were processed

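The members and gene lists were chosen with earlier results of these data known. Messenger RNA of 6 libraries (3 per group) was sequenced. The submitters' processing notes list HISAT2 and StringTie, with neither version nor role. No source used here names the counting tool, build, annotation release or strand setting. The authors deposited whole-number counts per Ensembl gene and an FPKM table, in which each value equalled the count divided by the table's gene length and 1 constant per library (largest relative gap 1.3e-13). Gene length (in bases) came from the deposited table. Of the gene identifiers 99.8% were in GENCODE M21 (GRCm38), 98.3% of these with the same start and end, all 10 members included. The gene lengths of the members equal the union of their exons there.

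The count test was run with edgeR 4.0.16 (R 4.3.3): filterByExpr (minimum count 10, minimum total 15, minimum proportion 0.7), TMM scaling, and a two-sided quasi-likelihood F test on group without further terms, adjusted by Benjamini-Hochberg over 12844 tested genes. CPM use TMM-adjusted totals. GC content was taken over the M21 transcripts of a gene, and the length and GC trend was fitted per library with mgcv 1.9.3. Library totals are given with the results and fix the precision of counting. Alternatives were RLE and total-count scaling, DESeq2 1.42.0, limma 3.58.1 (voom, and log2 FPKM with pseudocounts of 1 and 0.1), no filter, a filter of 1 CPM, the replicate block, the offset, and leaving out each library. The fits were tested on simulated data. The naming rule took Gc, the members, from each list the 2 tested genes of highest FPKM (or any that passed), and 3 nearest genes for Ctsz and Lgmn.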

Additional observations from a re-analysis of the deposited data

How the results depend on the processing

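No member passed in any of the 17 alternative fits (adjusted p of 0.41 to 1), nor did any gene of the 8 lists. Of 136 alternative values of the 8 tested members, 5 turned in sign: with the length and GC offset, Ctsa (-0.070), Ctsd (-0.019) and Ctsz (-0.021), and without Vdbp replicate 1, Ctsa (-0.053) and Ctsd (-0.0093). Leaving out each library in turn gave log2 fold changes of -0.053 to 0.11 for Ctsa, -0.0093 to 0.16 for Ctsd, 0.0098 to 0.24 for Ctsz (without Vdbp replicates 1 and 3), -0.21 to -0.074 for Ctsc (without Vdbp replicates 2 and 1), -0.15 to -0.068 for Ctsb, -0.21 to -0.12 for Ctsl, -0.16 to -0.088 for Lgmn and -0.29 to -0.18 for Ctss. Over all genes, calls numbered 11 with DESeq2, 89 with no filter on low counts, 2 with the offset, 4 with log2(FPKM + 1), and 0 to 22 without 1 library (0, 1 and 22 without empty-vector replicates 1, 2 and 3), and the cause was not tested. The difference in summed level, Vdbp minus empty vector, was -284 CPM, -341 CPM with total-count scaling and -850.4 to 34.7 CPM without 1 library, the ends being without Vdbp replicates 1 and 3.

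With the replicate block 0 genes passed (unadjusted p under 0.05 for 695, against 687 without it), and Ctss had a log2 fold change of -0.25. Same-numbered libraries deviated from their group means with correlations across genes of 0.14, 0.030 and -0.27. The labels state nothing that these libraries share beyond the number, and a shared batch was not tested. Ctse and Ctsh had too few counts at this depth to be tested.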
